A study of Arabidopsis thaliana with 27 samples.

Results

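The transcripts of 10 small heat shock protein (small HSP) genes of Arabidopsis thaliana were followed across cadmium (Cd) exposure and 3 labelled plant lines. By design 2 of these lines alter the glycolate oxidase gene GOX2, and no enzyme activity was measured. The genes were taken by locus and by the compartment of the encoded protein. No measured value enters that rule, but it was set with earlier results of these data known. They comprised 5 cytosolic genes (HSP17.4, AT3G46230; AT1G53540; HSP17.8, AT1G07400; AT2G29500; HSP17.6II, AT5G12020), 1 peroxisomal gene (AT5G37670), 2 mitochondrial genes (HSP23.6-MITO, AT4G25200; AT5G51440), 1 plastid gene (HSP21, AT4G27670) and 1 endoplasmic reticulum (ER) gene (ATHSP22.0, AT4G10250). Each locus was represented by 1 of the 37118 features of the array (3 or 4 probe pairs), out of 32627 loci, and all 10 were measured because no feature was filtered out. RNA of Col-0 plants grown for about a fortnight on MS medium was hybridized to 27 single-color NimbleGen arrays, 3 for each of 9 labelled groups. By design the lines were a gox2 mutant, a line that overexpresses GOX2 from the constitutive 35S promoter (35S::GOX2), and wild type (WT). For the mutant the study's methods name the allele gox2-1. Each line was sampled in a Cd-free solution (control) and after 30 min or 24 h in 100 μM Cd. Each array stands for a separate biological replicate pooled from at least 5 plants. The labels call the material both seedlings and leaves, give the short exposure as 30 min where the growth methods give 1 h, and write the control of the mutant as atgox, with no gene number. Values are log2 RMA intensities, quantile-normalized between arrays, and the level of one gene cannot be set against that of another because their probes differ.

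Small HSPs are chaperones that work without ATP. They share an alpha-crystallin domain, assemble into oligomers, and bind proteins that are losing their fold until Hsp70 and Hsp101 can refold them. Plants make separate small HSPs for the cytosol and for the organelles, and most of these genes are nearly silent in unstressed leaves and are switched on by heat stress transcription factors (HSFs) during heat, oxidative stress or heavy metal exposure. GOX2 encodes a glycolate oxidase, the photorespiratory enzyme of the peroxisome that releases hydrogen peroxide, and Cd binds thiol groups and damages protein folding.

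The level of GOX2 did not follow the genotype labels. It averaged 9.94, 9.68 and 10.30 on the arrays labelled gox2 Cd 30 min, 35S::GOX2 control and WT Cd 30 min, and between 13.67 and 14.21 on those of the other 6 labelled groups. In addition, 8 of the 27 arrays, in the groups labelled gox2 control, gox2 Cd 24 h, 35S::GOX2 Cd 30 min and 35S::GOX2 Cd 24 h, were closest by correlation to some array of a different label, while in the remaining 5 groups every array was closest to its own label. Groups are therefore named by their labels only, and a direction given for a line is that of the arrays so labelled. The arrays lay on 3 slides. Of the 13 comparisons made, only 2 had both groups on the same slide, WT Cd 24 h with WT control and 35S::GOX2 control with WT control. The groups gox2 Cd 24 h and gox2 control shared 1 slide in part. In each of the other 10 comparisons no slide held both groups, so that slide and group cannot be told apart within it. The mean of 17 root marker genes, relative to each gene's mean, ranged from -0.59 to 0.45 on the 3 arrays labelled gox2 Cd 24 h and from -0.62 to 0.42 on those labelled 35S::GOX2 Cd 30 min, and the mean of 12 leaf photosynthesis genes ranged from -0.16 to 0.11. Less RNA per cell and fewer cells of one organ cannot be told apart in such bulk samples.

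**Figure D1:**
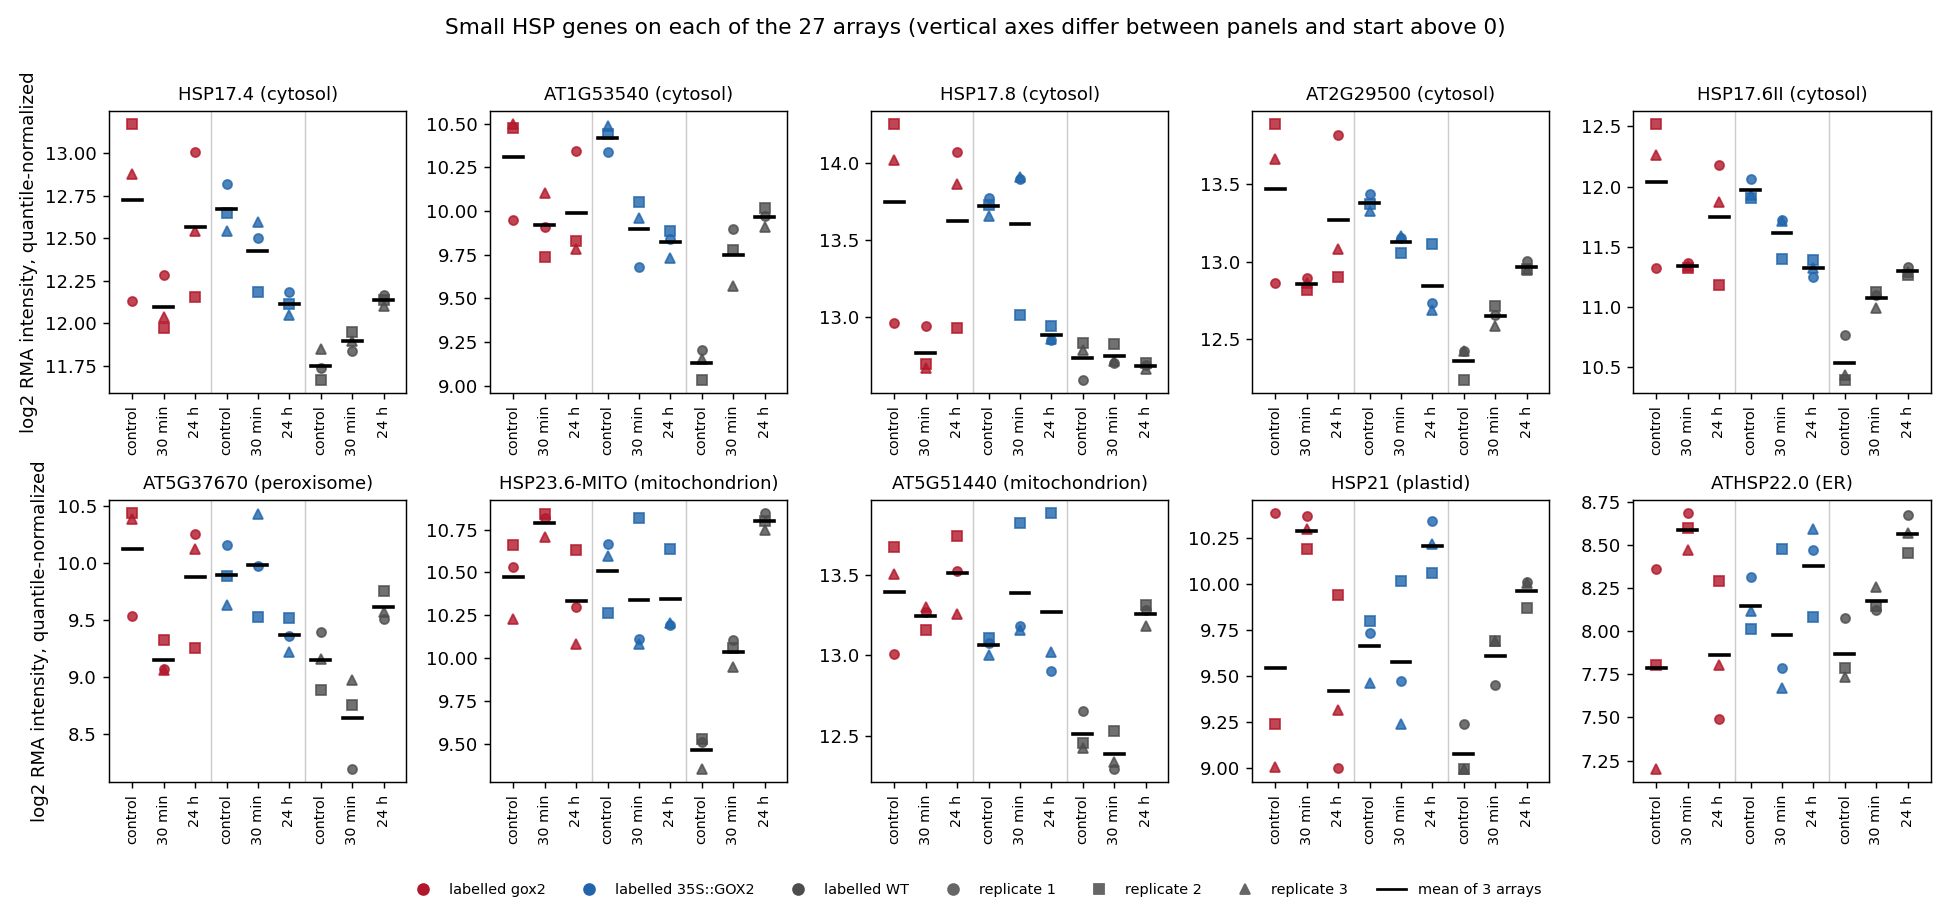
Each panel plots 1 small HSP gene, with its log2 RMA intensity (vertical axis) on every array by labelled group (horizontal axis: control, Cd 30 min and Cd 24 h within each labelled line), points for arrays by replicate and bars for the mean of 3 arrays. The 3 arrays labelled WT control hold the lowest mean of AT1G53540, HSP17.4, AT2G29500, HSP17.6II, HSP23.6-MITO and HSP21, and the arrays labelled gox2 control are split, with replicate 1 apart from replicates 2 and 3 in most panels.

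Over the 27 arrays each gene spanned 1.39 (HSP21) to 2.24 (AT5G37670) log2 units. The group means were lowest in WT control for 4 of the 5 cytosolic genes (HSP17.4, AT1G53540, AT2G29500 and HSP17.6II), for HSP23.6-MITO and for HSP21. They were lowest in WT Cd 24 h for HSP17.8, in WT Cd 30 min for AT5G37670 and AT5G51440, and in gox2 control for ATHSP22.0. The highest means stood in the groups labelled gox2 control (HSP17.4, HSP17.8, AT2G29500, HSP17.6II and AT5G37670), 35S::GOX2 control (AT1G53540), WT Cd 24 h (HSP23.6-MITO), gox2 Cd 24 h (AT5G51440) and gox2 Cd 30 min (HSP21 and ATHSP22.0). When the 9 means of a gene were put in order, the steps between neighbours were mostly within the spread. Only 3 neighbouring pairs in all 10 genes differed past the threshold of an adjusted p under 0.05 (limma, Benjamini-Hochberg over all features): WT Cd 30 min over WT control for AT1G53540 and HSP23.6-MITO, and 35S::GOX2 control over WT control for AT5G51440. The standard error of a difference between 2 groups was the same in every comparison for a given gene, from 0.15 for AT1G53540 to 0.28 for HSP17.8.

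Without Cd, 8 of the 10 genes were higher on the arrays labelled 35S::GOX2 control than on those labelled WT control, and none was lower. Over all features, 38.3% passed in this comparison, 16.2% as higher and 22.1% as lower, and for 9 of the 10 genes the 3 arrays of each group did not overlap, against 24.5% of all features that were higher without overlap. HSP17.6II, a class II cytosolic small HSP, read 12.07, 11.91 and 11.93 on the arrays labelled 35S::GOX2 control, against 10.77, 10.40 and 10.44 on those labelled WT control. It was 2.70-fold higher (log2 difference 1.43, SE 0.22, adjusted p = 7.28e-05). The 4 class I genes followed, with AT1G53540 at 2.45-fold, AT2G29500 at 2.03-fold, HSP17.8 at 1.97-fold and HSP17.4 at 1.89-fold. All 5 cytosolic genes passed in this pair of groups, and none of their arrays overlapped.

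The organelle genes split in the same comparison. HSP23.6-MITO, a chaperone of the mitochondrial matrix, read 10.66, 10.26 and 10.60 in 35S::GOX2 control, against 9.51, 9.53 and 9.35 in WT control, a difference of 1.04 (SE 0.17, adjusted p = 0.000119). The second mitochondrial gene, AT5G51440, was higher by 0.55 (adjusted p = 0.0438) and the peroxisomal AT5G37670 by 0.74 (adjusted p = 0.036). HSP21, which protects the photosynthetic machinery of the chloroplast, read 9.74, 9.80 and 9.46 in 35S::GOX2 control and 9.24, 9.0 and 9.0 in WT control, and its difference of 0.59 did not pass (adjusted p = 0.0821). ATHSP22.0, the small HSP of the ER lumen, differed by 0.28 (adjusted p = 0.369) with overlapping arrays. The median difference was 0.95 over the 10 genes and -0.07 over all features. Both groups lay on one slide, and 6 or 7 genes passed whichever array was left out. The call of AT5G51440 was lost without any 1 of the 6 arrays (log2 differences of 0.51 to 0.62), that of AT5G37670 without WT control replicate 2 or 3 (0.61 and 0.75) or without 35S::GOX2 control replicate 1 or 2 (0.61 and 0.75), and with the values as deposited (0.62, adjusted p = 0.0784). HSP21 passed with only the 6 arrays compared (adjusted p = 0.00671). All 10 genes passed in a fit to the 5 groups whose arrays were closest to their own label, where 53.5% of all features did. Those groups were chosen after seeing the data, for arrays that resemble each other, which leaves out the spread of the remaining groups.

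The arrays labelled gox2 control stood above the same WT control arrays in 8 of the 10 genes, and none was lower, where 26.9% of all features passed, 12.1% as higher and 14.8% as lower. For these 8 genes the groups did not overlap, against 20.3% of all features that were higher without overlap. The control arrays are shared with the comparison above. HSP17.6II read 11.33, 12.52 and 12.27 in gox2 control, against 10.77, 10.40 and 10.44 in WT control, and was 2.84-fold higher (log2 difference 1.50, SE 0.22, adjusted p = 0.000204). HSP17.8 read 12.96, 14.26 and 14.02 in gox2 control, against 12.59, 12.83 and 12.79 in WT control, and was 2.01-fold higher (adjusted p = 0.0116). In both genes replicate 1 of gox2 control lay far below replicates 2 and 3, yet above every WT control array. The other cytosolic genes were higher by 1.18 (AT1G53540), 1.11 (AT2G29500) and 0.98 (HSP17.4), HSP23.6-MITO by 1.01, AT5G51440 by 0.88 and AT5G37670 by 0.97. Of the organelle genes, HSP21 read 10.39, 9.24 and 9.01 in gox2 control and ATHSP22.0 read 8.36, 7.81 and 7.20, and neither passed (differences of 0.47 and -0.08, adjusted p = 0.191 and 0.838). No slide held both groups, and when slide was fitted as a random block HSP17.8 (adjusted p = 0.102) and AT5G37670 (adjusted p = 0.109) no longer passed, with 11.2% of all features past the threshold. Without gox2 control replicate 2 the differences of HSP17.8 and AT5G37670 were 0.75 and 0.81 and did not pass, without replicate 3 they were 0.87 and 0.84 and did not pass, and without WT control replicate 2 AT5G37670 was at 0.84 and did not pass. In this comparison, 8 of the 17 root markers passed as lower in gox2 control, with a median difference of -0.59, against 1 of 17 and -0.16 in 35S::GOX2 control. Without overlap with WT control, 13 were lower and 0 higher in gox2 control, and 9 lower and 2 higher in 35S::GOX2 control. The shares of all features that were lower without overlap are not given for these comparisons. The part of the root markers in the small HSP differences was not tested.

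**Figure D2:**
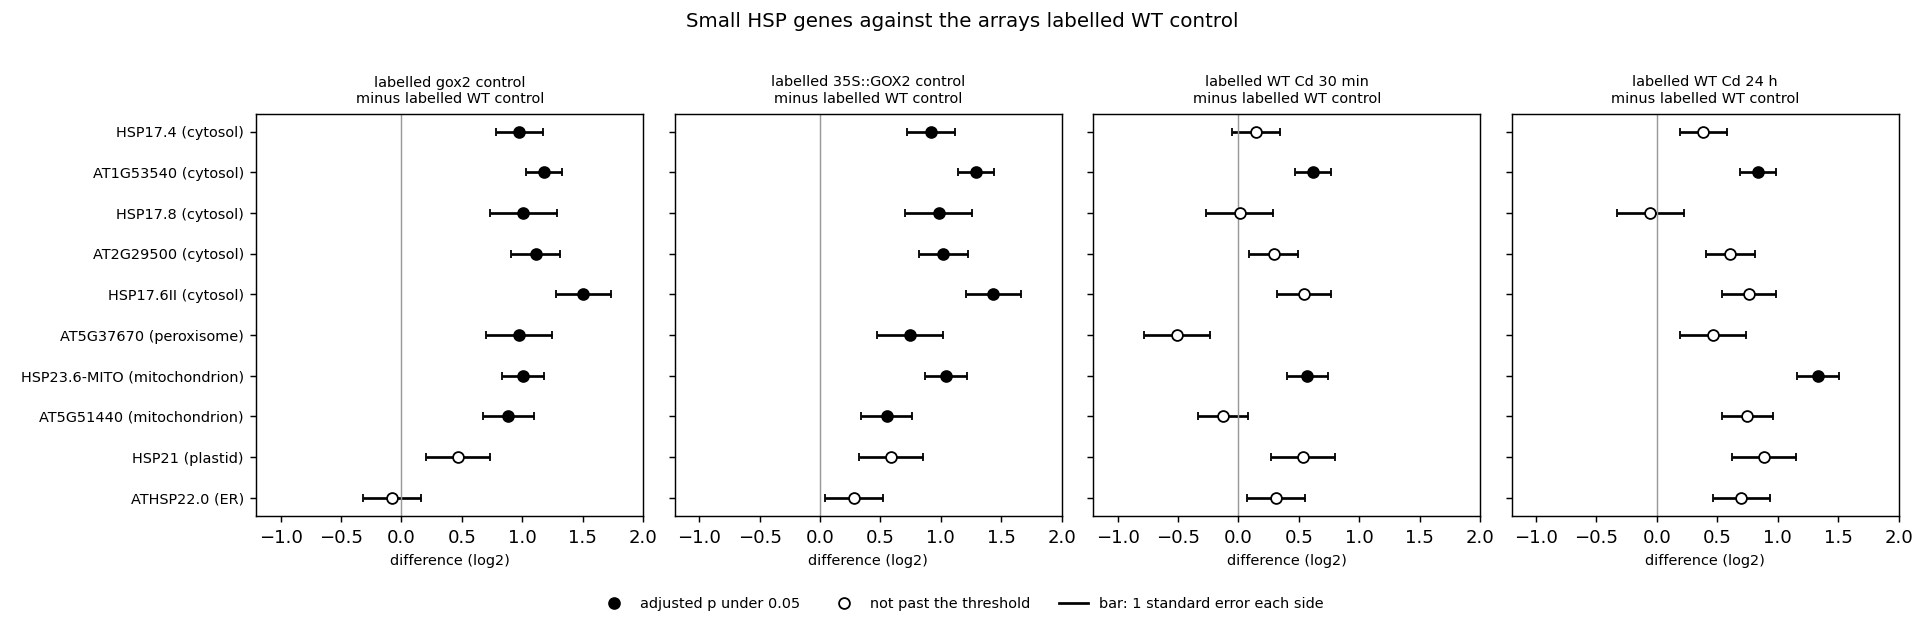
The 4 panels give, for the 10 genes, the log2 difference (horizontal axis) of the arrays labelled gox2 control, 35S::GOX2 control, WT Cd 30 min and WT Cd 24 h from those labelled WT control, with 1 standard error on each side and filled points for an adjusted p under 0.05. Without Cd, 8 genes lie to the right in each line and pass, while HSP21 and ATHSP22.0 do not, and in WT only AT1G53540 and HSP23.6-MITO pass at either time of Cd.

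Genes that work with the small HSPs were also compared without Cd. Of 8 other genes of the alpha-crystallin family, 4 were higher and 2 lower in 35S::GOX2 control than in WT control, led by AT1G59860 (1.52, adjusted p = 0.00106) and HSP17.6A (1.07, adjusted p = 0.00115). The share of all features was 16.2% as higher and 22.1% as lower. Of 21 measured HSF genes and their coactivator MBF1C, 8 were higher and 2 lower, among them HSFA2 (1.58), which keeps small HSP genes on during long stress, AT-HSFA7B, MBF1C (0.93) and HSFB2A (0.91). Of 28 partner chaperones, 11 were higher and none lower, among them the co-chaperone BAG6 (1.36), Hsp70b (0.92), Fes1A (0.82), which protects Hsp70 in the cytosol, and the Hsp90 gene Hsp81.4 (0.79). The medians of these lists were 0.51, 0.27 and 0.22. In gox2 control 3 of 8, 3 of 21 and 5 of 28 were higher than in WT control (2 HSF genes were lower), where 12.1% of all features were higher and 14.8% lower, with medians of 0.43, 0.09 and 0.15. The HSF genes named there by size were HSFA3 (0.91), HSFA8 (0.75) and HSF A4A (0.59), higher, and AT-HSFA5, lower at -0.35.

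On the arrays labelled WT, Cd was followed by a rise of 2 of the 10 genes at each time, AT1G53540 and HSP23.6-MITO. None passed in the other direction. GOX2 averaged 13.73 in WT control, 10.30 in WT Cd 30 min and 13.67 in WT Cd 24 h, and its part was not tested. At 30 min, 15% of all features passed, 8.6% as higher and 6.43% as lower. AT1G53540 read 9.90, 9.78 and 9.57 in WT Cd 30 min, against 9.21, 9.03 and 9.15 in WT control (0.62, adjusted p = 0.00734), and HSP23.6-MITO read 10.10, 10.06 and 9.95, against 9.51, 9.53 and 9.35 (0.57, adjusted p = 0.0285). No array overlapped in either gene, and 6 of the 10 genes were higher without overlap, against 6605 of the 37118 features. The peroxisomal AT5G37670 read 8.19, 8.75 and 8.98 in WT Cd 30 min and 9.40, 8.89 and 9.16 in WT control, so that the groups overlapped, and the difference of -0.51 did not pass (adjusted p = 0.244). No slide held both groups, and when slide was fitted as a random block neither gene passed (adjusted p = 0.127 for AT1G53540 and 0.266 for HSP23.6-MITO), where 3.27% of all features did. Neither did without WT Cd 30 min replicate 1 (0.54 for both genes), the call of HSP23.6-MITO was also lost without WT Cd 30 min replicate 2 (0.56), without WT control replicate 1, 2 or 3 (0.59, 0.60 and 0.51) and with the values as deposited (0.49), and 5 genes passed with only the 6 arrays compared, where 17.7% of all features did.

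At 24 h of Cd in WT the same 2 genes passed, where 3.22% of all features did, 1.5% as higher and 1.72% as lower. HSP23.6-MITO read 10.85, 10.80 and 10.75 in WT Cd 24 h, against 9.51, 9.53 and 9.35 in WT control, and was 2.51-fold higher (log2 difference 1.33, SE 0.17, adjusted p = 0.00147). AT1G53540 read 9.97, 10.02 and 9.91 in WT Cd 24 h, against 9.21, 9.03 and 9.15 in WT control, and was 1.78-fold higher (adjusted p = 0.00972). Both calls were kept when each array was left out in turn and with slide as a block, and both groups lay on one slide. A further 7 genes were higher without overlap between the groups, so that 9 of the 10 were, against 17.7% of all features. HSP21 read 10.01, 9.87 and 10.01 in WT Cd 24 h and 9.24, 9.0 and 9.0 in WT control (0.89, adjusted p = 0.0631), AT5G51440 differed by 0.75 (adjusted p = 0.0537), HSP17.6II by 0.76 (adjusted p = 0.0614), ATHSP22.0 by 0.70 (adjusted p = 0.0992), AT2G29500 by 0.61 (adjusted p = 0.0932), AT5G37670 by 0.46 (adjusted p = 0.344) and HSP17.4 by 0.39 (adjusted p = 0.274). HSP17.8 alone overlapped, at -0.05. Of the 17 root markers 11 were lower and 4 higher without overlap in the same comparison, and 1 passed as lower. The share of all features that were lower without overlap is not given for this comparison. The root marker differences ran from -2.98 to 0.76, with a median of -0.30. Their mean lay between -0.18 and -0.11 in WT Cd 24 h and between 0.30 and 0.43 in WT control. Their part in the small HSP differences was not tested. The fit over 27 arrays takes its spread also from the groups with mixed arrays. When it was restricted to the 6 arrays compared, 8 genes passed, where 18.9% of all features did, and these were all but HSP17.8 and AT5G37670. The same number passed in a fit to the 5 groups whose arrays were closest to their own label, a set chosen after seeing the data, with 23.1% of all features.

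Between the times, AT5G37670, AT5G51440 and HSP23.6-MITO were higher in WT Cd 24 h than in WT Cd 30 min, so that all 3 genes past the threshold encoded peroxisomal or mitochondrial small HSPs, and none of the 5 cytosolic genes passed. Over all features 21.3% passed, 9.98% as higher and 11.3% as lower. GOX2 averaged 13.67 at 24 h and 10.30 at 30 min, and its part was not tested. AT5G51440 read 13.28, 13.31 and 13.18 at 24 h, against 12.29, 12.53 and 12.33 at 30 min (0.88, adjusted p = 0.00643). AT5G37670 read 9.51, 9.76 and 9.57 at 24 h, against 8.19, 8.75 and 8.98 at 30 min (0.97, adjusted p = 0.0156). HSP23.6-MITO was higher by 0.76 (adjusted p = 0.00441). None of the 3 overlapped between the times, and 9 of the 10 genes (all but HSP17.8) were higher without overlap, against 25.5% of all features. With slide as a random block AT5G37670 (adjusted p = 0.143) and AT5G51440 (adjusted p = 0.0626) no longer passed, where 4.56% of all features did, without WT Cd 30 min replicate 1 or WT Cd 24 h replicate 2 AT5G37670 was at 0.75 and 0.90 and did not pass, and with only the 6 arrays compared 8 genes passed, where 30.9% of all features did. HSP17.4, AT2G29500 and HSP17.6II were among these 8, so the absence of cytosolic genes rested on the fit over all arrays.

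The partner genes past the threshold in WT after Cd were 3 at 24 h and 1 at 30 min. At 24 h the Hsp70 gene Hsp70b (0.76, adjusted p = 0.0032), the small HSP gene AT1G52560 (0.69, adjusted p = 0.0344) and HSFA8 (0.44, adjusted p = 0.0336) were the only members of their lists that were higher than in WT control, of 28, 8 and 21 genes, against 1.5% of all features, and none was lower. At 30 min only Hsp81.4 was higher (0.53, adjusted p = 0.00315), against 8.6% of all features. The medians of the 3 lists lay between -0.11 and 0.02 at both times, against 0.30 and 0.72 for the 10 small HSP genes at 30 min and 24 h.

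In the arrays labelled gox2, 30 min of Cd was followed by opposite changes in different compartments. GOX2 averaged 9.94 in gox2 Cd 30 min and 14.13 in gox2 control, and its part was not tested. Against gox2 control, 5 genes fell (HSP17.8, HSP17.6II, HSP17.4 and AT2G29500 of the cytosol, and the peroxisomal AT5G37670) and 2 rose (ATHSP22.0 of the ER and HSP21 of the plastid). Over all features 27.7% passed, 12.4% as lower and 15.3% as higher. HSP17.8 read 12.95, 12.70 and 12.67 in gox2 Cd 30 min, against 12.96, 14.26 and 14.02 in gox2 control (-0.98, adjusted p = 0.0128). AT5G37670 read 9.07, 9.33 and 9.06 in gox2 Cd 30 min, against 9.53, 10.43 and 10.38 in gox2 control (-0.97, adjusted p = 0.0118). In both genes the Cd arrays lay close to replicate 1 of gox2 control and well below replicates 2 and 3. HSP21 read 10.37, 10.19 and 10.30 in gox2 Cd 30 min, against 10.39, 9.24 and 9.01 in gox2 control (0.74, adjusted p = 0.0398), and ATHSP22.0 read 8.68, 8.60 and 8.47, against 8.36, 7.81 and 7.20 (0.79, adjusted p = 0.0172). Here too replicate 1 of gox2 control sat with or near the Cd arrays, and HSP21 overlapped. HSP17.6II differed by -0.69, HSP17.4 by -0.63 and AT2G29500 by -0.61, all 3 with overlapping arrays. In all, 2 genes were lower and 2 higher without overlap (HSP23.6-MITO and ATHSP22.0), against 20.8% and 24% of all features. The genes AT1G53540 (-0.39, adjusted p = 0.0568), HSP23.6-MITO (0.32, adjusted p = 0.184) and AT5G51440 (-0.15, adjusted p = 0.641) did not pass.

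These 7 calls depended on single arrays and on how slide was fitted. None of the 10 genes passed with slide as a random block, where 11.6% of all features did, although the log2 differences of the 7 genes moved little (HSP17.8 at -0.92, AT5G37670 at -0.91 and HSP21 at 0.72). None passed without gox2 control replicate 3, 1 passed without gox2 control replicate 2, 3 without gox2 Cd 30 min replicate 1 or 2, 4 without gox2 Cd 30 min replicate 3, and 8 without gox2 control replicate 1. With only the 6 arrays compared 1 gene passed (AT5G37670), where 24.5% of all features did. On the same arrays 7 of 17 root markers were higher and 2 of 12 leaf genes lower in gox2 Cd 30 min, against 15.3% and 12.4% of all features. Their median differences were 0.32 and -0.09, and their part in the small HSP differences was not tested. Of the 8 other alpha-crystallin genes, 6 fell, among them AT1G59860 (-1.06), AT5G47600 (-0.90) and AT1G54050 (-0.90), and AT1G52560 rose (0.74). Of the 21 genes of the HSF list 5 fell, with HSFA7A at -1.88 and MBF1C at -0.71, and 2 rose, and of the 28 partner chaperones 3 fell and 1 rose. Over all features 12.4% passed as lower and 15.3% as higher, and the partner chaperones exceeded neither share.

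After 24 h of Cd in gox2, none of the 10 genes passed in either direction against gox2 control, where 0.0135% of all features did (5 features, 0.00269% as higher and 0.0108% as lower). The differences ran from -0.32 (AT1G53540) to 0.12 (AT5G51440), and every gene overlapped, while 10.8% of all features did not. Both groups were split. HSP17.8 read 14.08, 12.93 and 13.87 in gox2 Cd 24 h, against 12.96, 14.26 and 14.02 in gox2 control, and HSP21 read 9.0, 9.94 and 9.32 in gox2 Cd 24 h, against 10.39, 9.24 and 9.01 in gox2 control. Replicate 2 of gox2 Cd 24 h and replicate 1 of gox2 control were the arrays with low HSP17.8 and high HSP21. Without gox2 Cd 24 h replicate 1, AT1G53540 passed at -0.50 (adjusted p = 0.0474). At an unadjusted p under 0.05 in limma, 1 of the 10 genes passed, AT1G53540, against 13% of all features.

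In the arrays labelled 35S::GOX2, the transcripts of all 5 cytosolic genes were lower after 24 h of Cd. At 30 min 1 of the 10 genes was lower, which is near the share of all features that were lower. GOX2 averaged 9.68 in 35S::GOX2 control, 13.88 at 30 min and 14.21 at 24 h of Cd, and its part was not tested. At 30 min, where 23% of all features passed, 10.7% as lower and 12.2% as higher, AT1G53540 read 9.68, 10.05 and 9.96, against 10.34, 10.44 and 10.49 in 35S::GOX2 control (-0.52, adjusted p = 0.0148). Its arrays did not overlap, nor did those of AT2G29500 (-0.25) and HSP17.6II (-0.35), so that 3 of the 10 genes were lower without overlap, against 18% of all features. The mitochondrial AT5G51440 was higher without overlap (0.33). AT2G29500, HSP17.6II and AT5G51440 did not pass. At 24 h, where 43.9% of all features passed, 20.2% as lower, AT1G53540 read 9.84, 9.89 and 9.73 (-0.60, adjusted p = 0.0031). HSP17.8 read 12.85, 12.94 and 12.86 in 35S::GOX2 Cd 24 h, against 13.77, 13.73 and 13.66 in 35S::GOX2 control (-0.84, adjusted p = 0.0198), and HSP17.6II, HSP17.4 and AT2G29500 differed by -0.65, -0.55 and -0.53. No array overlapped between the groups in any of the 5 at 24 h, against 25.2% of all features that were lower without overlap. In the fit over all arrays the organelle genes did not pass at 24 h. AT5G37670 was at -0.52 (adjusted p = 0.125), HSP23.6-MITO at -0.16, AT5G51440 at 0.21, ATHSP22.0 at 0.23, and HSP21 at 0.54 (adjusted p = 0.101). HSP21 read 10.35, 10.06 and 10.22 in 35S::GOX2 Cd 24 h and 9.74, 9.80 and 9.46 in 35S::GOX2 control. AT5G37670 was lower and HSP21 higher without overlap between these groups. Both genes passed in limma with only the arrays compared (adjusted p = 0.0401 and 0.018), where 37.4% of all features did. The absence of organelle genes at 24 h therefore rested on the fit over all arrays.

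The groups of both comparisons lay on different slides. Only AT1G53540 passed at 24 h with slide as a random block, where 28.5% of all features did, and no gene at 30 min (adjusted p = 0.146 for AT1G53540), where 8.15% did. The call at 30 min was lost without 35S::GOX2 control replicate 3 (-0.49) or 35S::GOX2 Cd 30 min replicate 1 (-0.41). The count at 24 h fell to 1 without 35S::GOX2 control replicate 1 or 35S::GOX2 Cd 24 h replicate 1, to 2 without 35S::GOX2 Cd 24 h replicate 3, to 3 without 35S::GOX2 control replicate 2 or 3, and to 4 without 35S::GOX2 Cd 24 h replicate 2, with AT1G53540 the gene that passed in each case. At 24 h, 9 of 17 root markers were lower than in 35S::GOX2 control (median -0.66), against 20.2% of all features in the fit over all arrays, and their part was not tested. On the same arrays and in the same fit, 43.9% of all features passed, 20.2% as lower, which is the share to set beside each list that follows. Of the HSF list 8 of 21 genes fell and 3 rose, led by HSFA2 (-2.07), AT-HSFA7B (-1.60), HSFA6B (-1.51) and AT-HSFB2B (-1.28). Of the 28 partner chaperones 18 fell and 2 rose, with BAG6 at -1.67 and, in the other direction, the ER lumenal Hsp70 gene BIP3 at 1.71. Of the 8 other alpha-crystallin genes 4 fell, led by AT1G59860 (-1.41), and 2 rose.

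**Figure D3:**
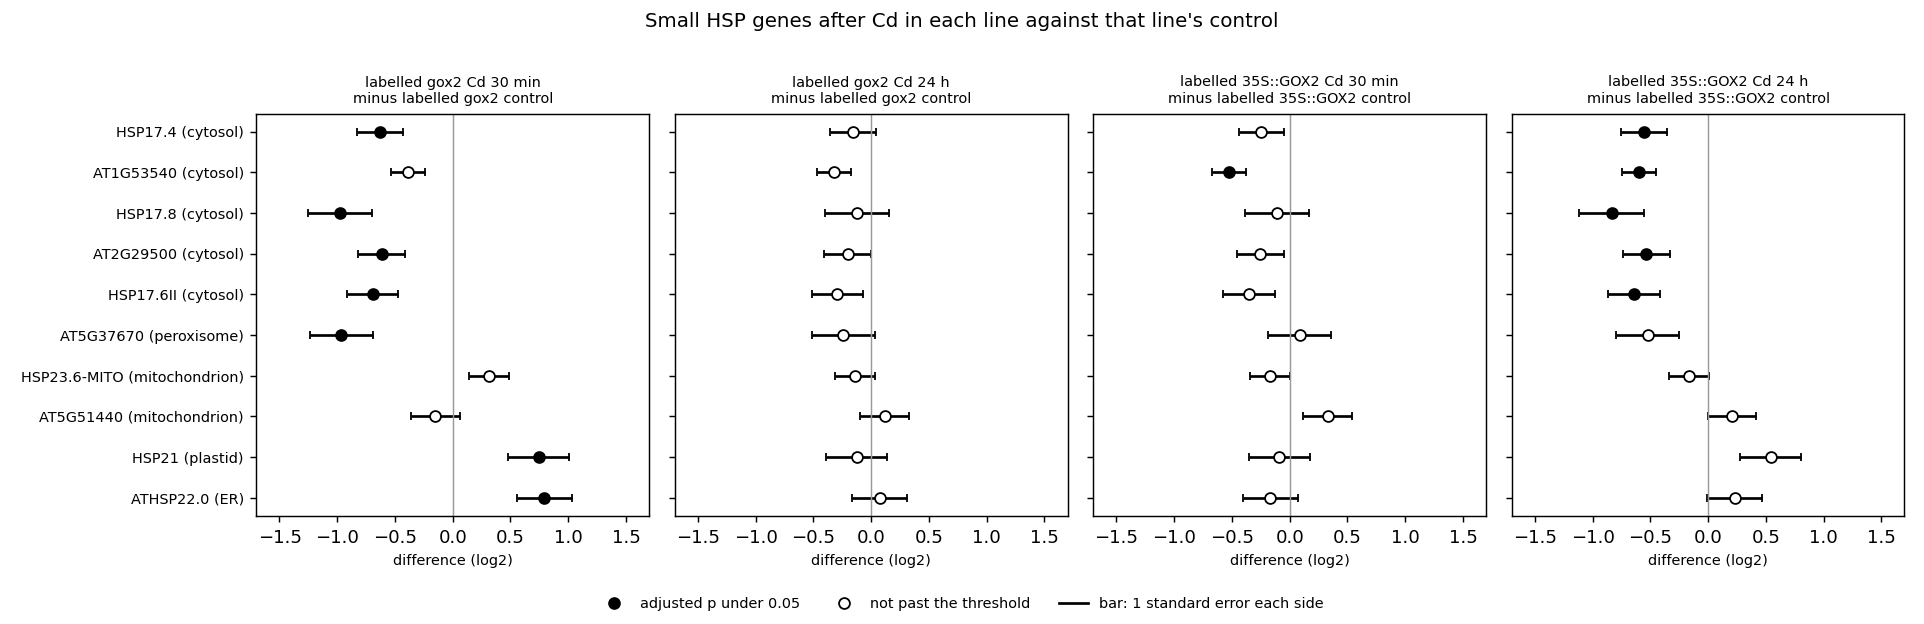
The 4 panels give the log2 difference (horizontal axis) of the arrays labelled Cd 30 min and Cd 24 h from the control of the same labelled line, gox2 or 35S::GOX2, for the 10 genes, with 1 standard error on each side and filled points for an adjusted p under 0.05. At 30 min in gox2, the filled points are 5 genes of the cytosol and peroxisome to the left and HSP21 and ATHSP22.0 to the right. At 24 h in 35S::GOX2 they are the 5 cytosolic genes to the left. Open points also lie to the left, among them AT1G53540 (-0.39) in gox2 at 30 min and AT5G37670 (-0.52) in 35S::GOX2 at 24 h.

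The response of a line was also set against that of WT by the difference of the 2 log2 differences, which has a standard error of 0.21 to 0.39. All 4 tests share the WT control arrays. Each value also equals the difference of the line from WT under Cd minus that without Cd. It is therefore not independent of the control comparisons above. Each value below is the response in the line minus that in WT, so that a negative one marks a lower signed response, which can be a smaller rise or a fall where WT rose. At 30 min, HSP17.6II (-1.23), AT1G53540 (-1.01), AT2G29500 (-0.90) and HSP17.4 (-0.77) had a lower signed response in gox2 than in WT, 4 of 10 genes against 27% of all features (13% in this direction and 14% in the other). HSP17.6II, for example, differed from control by -0.69 in gox2 and 0.54 in WT, and HSP17.4 by -0.63 in gox2 and 0.14 in WT. AT1G53540 (-1.14), HSP17.6II (-0.89) and HSP23.6-MITO (-0.74) did so in 35S::GOX2, 3 of 10 against 29.7% (13.6% in this direction and 16.1% in the other). At 24 h, HSP23.6-MITO (-1.47) did so in gox2, 1 of 10 against 0.0162% of all features, that is 6 features (0.0108% in this direction and 0.00539% in the other). HSP23.6-MITO (-1.49), AT1G53540 (-1.44), HSP17.6II (-1.41), AT2G29500 (-1.14) and HSP17.4 (-0.94) did so in 35S::GOX2, 5 of 10 against 27.5% (12.7% in this direction and 14.9% in the other). The response of HSP23.6-MITO at 24 h was -0.16 in 35S::GOX2, -0.14 in gox2 and 1.33 in WT. No difference of responses past the threshold was positive, and HSP21 and ATHSP22.0 passed in none of the 4 tests. With slide as a random block 1 of 10 genes passed in 35S::GOX2 at 30 min, where 23.8% of all features did, and 4 of 10 at 24 h, where 16.6% did. In gox2 no gene passed at 30 min or 24 h with this setting, but only 109 features (0.294%) and 2 features (0.00539%) passed in all.

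Several of these calls rested on single arrays. Those for gox2 at 30 min came down to 2 without WT control replicate 2, gox2 Cd 30 min replicate 2, WT Cd 30 min replicate 2, or gox2 control replicate 2 or 3. Those for 35S::GOX2 at 30 min came down to 1 (AT1G53540) without WT control replicate 3, 35S::GOX2 control replicate 1 or 3, or WT Cd 30 min replicate 1. The call of HSP23.6-MITO in gox2 at 24 h was lost without any 1 of the WT control and WT Cd 24 h arrays, gox2 Cd 24 h replicate 3 or gox2 control replicate 2 (-1.34 to -1.50), and 3 and 4 genes passed without gox2 Cd 24 h replicate 1 and gox2 control replicate 1. The calls for 35S::GOX2 at 24 h were 5 or 6 whichever array was left out.

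With Cd on both sides, 2 of the 10 genes passed as higher at 30 min on the arrays labelled gox2 than on those labelled WT. On the arrays labelled 35S::GOX2 3 genes did, and none was lower in either line. GOX2 averaged 9.94 in gox2, 10.30 in WT and 13.88 in 35S::GOX2 at 30 min of Cd, and its part was not tested. More of the 10 genes were higher without overlap, 8 in gox2 against 22.3% of all features and 6 in 35S::GOX2 against 16%. The mitochondrial AT5G51440 read 13.27, 13.16 and 13.30 in gox2, against 12.29, 12.53 and 12.33 in WT (0.86, adjusted p = 0.021), and HSP23.6-MITO read 10.82, 10.84 and 10.71 in gox2, against 10.10, 10.06 and 9.95 in WT (0.75, adjusted p = 0.0159). These 2 of 10 genes stood against 7.67% of all features (3.67% as higher). In 35S::GOX2 at 30 min the genes past the threshold were AT5G37670 (1.34, adjusted p = 0.00296), AT5G51440 (1.01, adjusted p = 0.00351) and HSP17.8 (0.86, adjusted p = 0.0385), 3 of 10 against 16.9% of all features (8.11% as higher). HSP17.8 read 13.90, 13.02 and 13.91 in 35S::GOX2 Cd 30 min, against 12.70, 12.83 and 12.72 in WT Cd 30 min, so that replicate 2 lay near the WT arrays, and AT5G37670 read 9.97, 9.53 and 10.43, against 8.19, 8.75 and 8.98. AT5G51440 alone passed with slide as a random block in 35S::GOX2, where 3.39% of all features did, and no gene in gox2, where only 7 features (0.0189%) did. Slide as a fixed block could be fitted for 35S::GOX2 only through gox2 Cd 24 h, the group with arrays on both slides. Its 3 arrays were each closest to an array of another label. No gene passed in that fit, where 0.921% of all features did. With only the 6 arrays compared 5 genes passed in gox2, where 6529 of the 37118 features did. In 35S::GOX2 the 3 calls were then lost (adjusted p = 0.0687 for AT5G37670, 0.0579 for AT5G51440 and 0.112 for HSP17.8) and AT2G29500 passed, where 2.72% of all features did. The 2 calls in gox2 were lost without gox2 Cd 30 min replicate 1 or 2 or WT Cd 30 min replicate 1 (0.73 to 0.90), and that of HSP17.8 in 35S::GOX2 without any array of the comparison other than 35S::GOX2 Cd 30 min replicate 2 (0.71 to 0.90).

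After 24 h of Cd none of the 10 genes passed between either line and WT, where 2.14% of all features passed for gox2 and 14.6% for 35S::GOX2. At an unadjusted p under 0.05 in limma, 4 genes passed in gox2 and 1 in 35S::GOX2, against 20.8% and 29.2% of all features. The largest differences were those of HSP17.8 (0.94, adjusted p = 0.0763) and ATHSP22.0 (-0.70, adjusted p = 0.111) in gox2, and of HSP23.6-MITO (-0.45, adjusted p = 0.0826) in 35S::GOX2. Between 35S::GOX2 Cd 24 h and WT Cd 24 h, 4 of the 10 genes did not overlap, with HSP21 and HSP17.8 higher and HSP23.6-MITO and AT1G53540 lower in 35S::GOX2, against 35.1% of all features without overlap in either direction. Of the 17 root markers 9 were lower in 35S::GOX2 Cd 24 h than in WT Cd 24 h (median -0.45), and their part was not tested. HSP17.8 read 14.08, 12.93 and 13.87 in gox2 Cd 24 h, against 12.69, 12.70 and 12.66 in WT Cd 24 h. Without gox2 Cd 24 h replicate 2 (the low array), 5 genes passed, with HSP17.8 (1.29), HSP17.6II (0.73) and HSP17.4 (0.64) higher and ATHSP22.0 (-0.92) and HSP23.6-MITO (-0.61) lower than in WT. Without 35S::GOX2 Cd 24 h replicate 2, HSP23.6-MITO passed at -0.60 (adjusted p = 0.0263).

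The compartments also differed in which arrays were high. On the arrays labelled gox2 control replicates 2 and 3, gox2 Cd 24 h replicates 1 and 3, and 35S::GOX2 Cd 30 min replicates 1 and 3, the mean of the 5 cytosolic genes lay 0.24 to 0.91 above its average over all arrays. On the remaining array of each of these groups (gox2 control replicate 1, gox2 Cd 24 h replicate 2 and 35S::GOX2 Cd 30 min replicate 2) it lay at -0.11, -0.15 and -0.01. HSP21 and ATHSP22.0 ran the opposite way in each of the 3 groups. In gox2 control, HSP21 was highest on replicate 1, in gox2 Cd 24 h on replicate 2 and in 35S::GOX2 Cd 30 min on replicate 2, at 10.39, 9.94 and 10.02, and at most 9.47 on the other 6 arrays. ATHSP22.0 was at 8.36, 8.29 and 8.48 on the same 3 arrays and at most 7.81 on the other 6. HSP23.6-MITO followed this second pattern in part, highest on replicate 2 of gox2 Cd 24 h (10.63) and of 35S::GOX2 Cd 30 min (10.82). All arrays of the groups labelled gox2 control and gox2 Cd 24 h, and replicate 2 of 35S::GOX2 Cd 30 min, were also closest to an array of another label over all features, and the root marker mean was -0.59 and -0.62 on replicate 2 of gox2 Cd 24 h and of 35S::GOX2 Cd 30 min. The part of these array differences in the pattern was not tested.

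**Figure D4:**
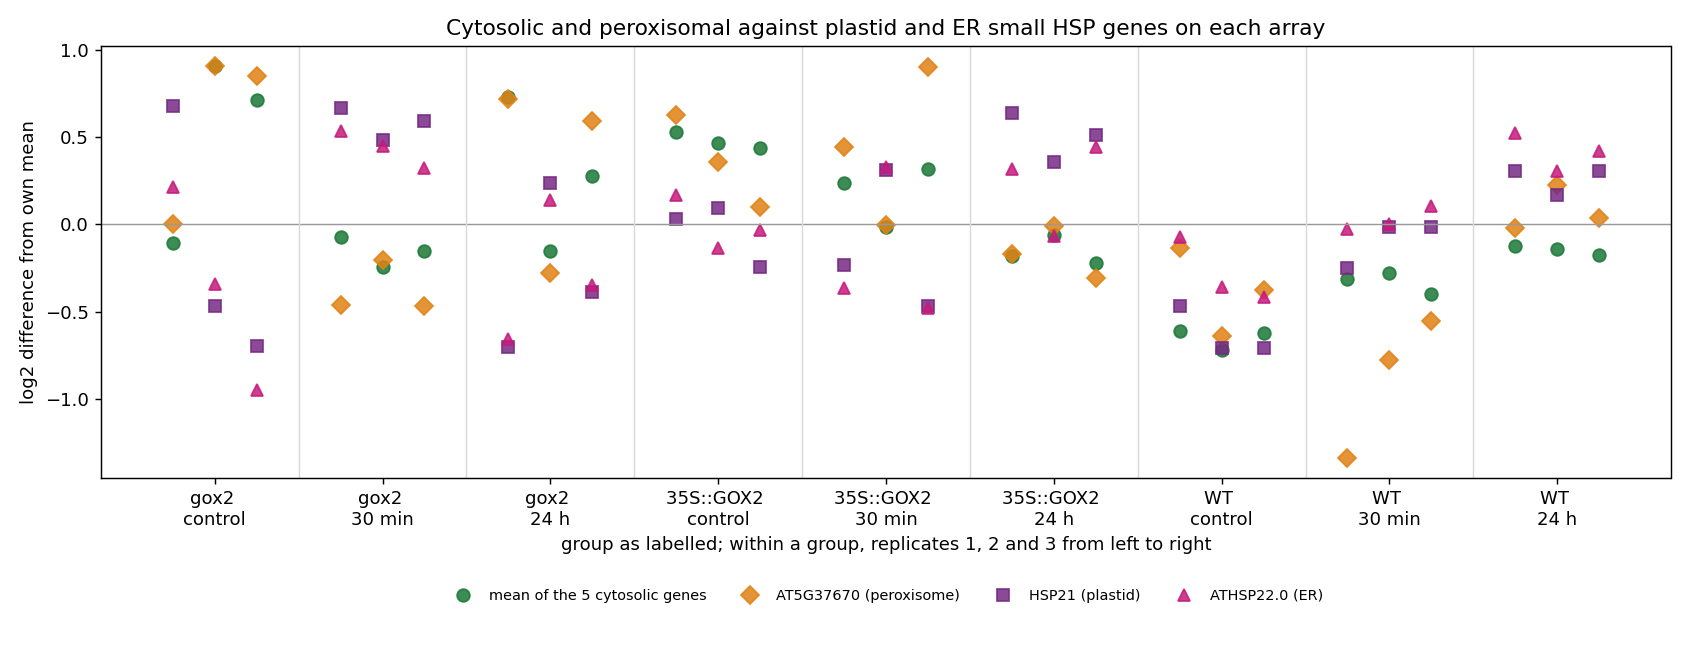
Each point is the log2 difference (vertical axis) of 1 gene, or of the mean of the 5 cytosolic genes, from its own mean over the 27 arrays, with arrays along the horizontal axis by labelled group. On the arrays labelled gox2 control, gox2 Cd 24 h and 35S::GOX2 Cd 30 min the cytosolic and peroxisomal points are high where HSP21 and ATHSP22.0 are low, and in WT control all 4 series lie below 0.

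Over the 27 arrays the 10 pairs of cytosolic genes had Pearson correlations of 0.60 to 0.96, with a median of 0.88. The peroxisomal AT5G37670 correlated with them at 0.54 (AT1G53540) to 0.85 (HSP17.4), and HSP21 with ATHSP22.0 at 0.88. The pairs of a cytosolic with a plastid or ER gene ran from -0.68 (HSP17.8 with ATHSP22.0) to 0.11 (AT1G53540 with HSP21). The 2 mitochondrial genes correlated at 0.69 with each other, HSP23.6-MITO at 0.64 with HSP21 and 0.55 with ATHSP22.0, and AT5G51440 at 0.38 to 0.66 with the cytosolic genes. When the group means were taken out, HSP17.8 and HSP21 still ran against each other (-0.88), and HSP21 ran with ATHSP22.0 (0.89). These are descriptions over arrays that share groups, slides and the split of 4 groups, and cytosolic small HSP genes resemble each other in sequence, so that probes may pick up more than 1 of them. The correlation with the root marker mean was -0.64 for AT5G51440, -0.60 for HSP23.6-MITO, -0.59 for HSP21 and -0.41 for ATHSP22.0, and between -0.26 and 0.25 for the cytosolic genes. With the leaf marker mean it was -0.26, -0.52, -0.41 and -0.53 for these 4 genes in the same order. It lay between 0.03 (AT1G53540) and 0.44 (HSP17.8) for the cytosolic genes.

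**Figure D5:**
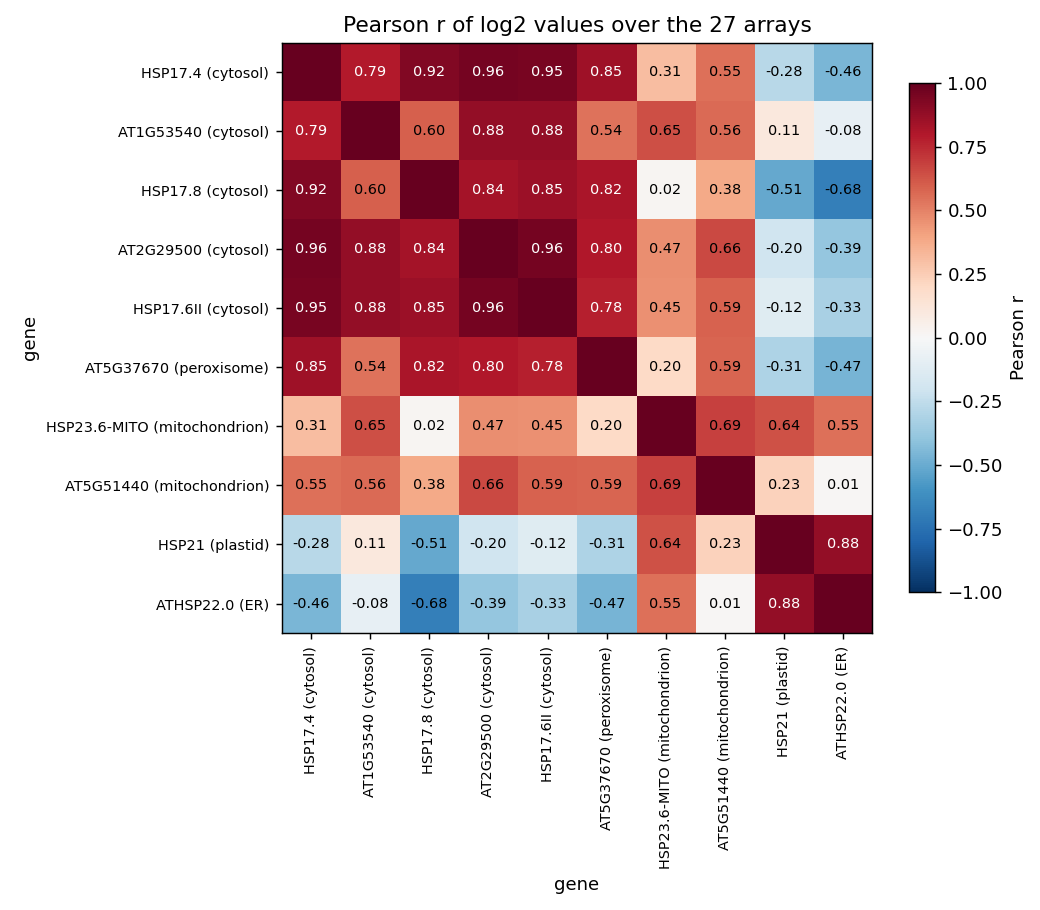
The matrix gives Pearson r (color scale from -1 to 1) between the log2 values of each pair of the 10 genes over the 27 arrays, ordered by compartment on both axes. The 5 cytosolic genes and AT5G37670 form a block of positive values, from 0.54 to 0.96, and HSP21 with ATHSP22.0 a second one at 0.88.

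The genes most like each small HSP gene over the 27 arrays, out of all loci, were in part other small HSPs. HSP17.4, AT2G29500 and HSP17.6II were the closest genes of one another, together with HSP17.6A (r = 0.95 to 0.96), and HSP17.8 was close to AT1G59860 (0.96), after FRB1 (0.97) and AT1G22810 (0.97). AT1G53540 was closest to AT3G46070 (0.92), AT3G46080 (0.91) and AT5G25260 (0.88). The peroxisomal AT5G37670 was closest to AT3G01830 (0.94), to the transcription factor gene WRKY48 (0.93) and to MSS3 (0.92), with no small HSP among the 3. Of the mitochondrial genes, AT5G51440 was closest to the zinc finger gene PMZ (0.94), AT1G69480 (0.93) and MYB32 (0.93), and HSP23.6-MITO to AT5G32518, AT5G13210 and AT2G27390 at no more than 0.85. HSP21 and ATHSP22.0 were each other's closest gene (0.88), followed by XTH15 (0.84) and RLP27 (0.82) for HSP21 and by IWS1 (0.82) and RLP27 (0.82) for ATHSP22.0.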

How the data were processed

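RNA of 27 samples was measured on single-color NimbleGen arrays. The deposited values are linear intensities, per the file headers, made for the authors by RMA (background correction, normalization and summary) over mostly 3 or 4 probe pairs a feature. The submitters' processing notes name limma without a version, and no genome build is given in the sources used here. The series table holds the same values, and no column of fold changes was used. The files hold no detection value, so the number of arrays limits the precision, and depth can be described only by the array medians (10.02 to 10.17 on the log2 scale, a range of 0.15 above the limit of 0.1). Log2 intensities were therefore quantile-normalized, and limma 3.58.1 in R 4.3.3 was fitted with 1 mean for each of the 9 labelled groups (lmFit, contrasts.fit, eBayes). Calls are two-sided moderated tests with an adjusted p under 0.05 (Benjamini-Hochberg over 37118 features), in 13 comparisons of groups and 4 differences of responses. The fit was tested on simulated data. A locus is represented by its feature of highest mean. Named are the 10 small HSP genes, up to 4 genes of each list and comparison with the largest change past the threshold, and the 3 genes most correlated with each small HSP. The members, the gene lists and this rule were chosen with earlier results of these data known. HSP17.8 stands on gene lists that the study drew in part from these samples. So do, among others, HSFA2, HSFA7A, BAG6, Fes1A, HSP17.6A, AT1G54050 and AT1G59860 of the comparison lists, whose changes here are therefore not independent of those lists. Symbols came from a RefSeq table that holds 31993 of the 32627 loci, apart from HSP17.8, named as in the study. A search of promoters for motifs was planned and not run. Alternative settings used the values as deposited without quantile normalization, the series table, a filter on dim features, the mean over features, replicate number or slide as a block, only the arrays compared, a fold minimum, Student's t-test, leaving out each array and, chosen after seeing the data, a fit to the 5 groups whose arrays were closest to their own label.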

Additional observations from a re-analysis of the deposited data

Results flagged for a closer look

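The 13 results listed here are differences between the Cd response of a line and that of WT that passed limma's two-sided test of the difference itself (adjusted p under 0.05). All were negative, and all rest on arrays named by labels that GOX2 did not follow. Each value also equals the difference of the line from WT under Cd minus that without Cd. The 13 are therefore not independent of the comparisons of the controls. HSP17.6II, for example, differed between 35S::GOX2 and WT by 0.03 at 24 h of Cd and by 1.43 without Cd. In gox2 at 30 min they were HSP17.6II (-1.23, adjusted p = 0.00809), AT1G53540 (-1.01, adjusted p = 0.00228), AT2G29500 (-0.90, adjusted p = 0.0253) and HSP17.4 (-0.77, adjusted p = 0.0464). In gox2 at 24 h it was HSP23.6-MITO (-1.47, adjusted p = 0.0447). In 35S::GOX2 at 30 min they were AT1G53540 (-1.14, adjusted p = 0.000325), HSP17.6II (-0.89, adjusted p = 0.0378) and HSP23.6-MITO (-0.74, adjusted p = 0.0254). In 35S::GOX2 at 24 h they were HSP23.6-MITO (-1.49, adjusted p = 0.000628), AT1G53540 (-1.44, adjusted p = 0.000413), HSP17.6II (-1.41, adjusted p = 0.00379), AT2G29500 (-1.14, adjusted p = 0.00728) and HSP17.4 (-0.94, adjusted p = 0.0183).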

How the results depend on the processing

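Of the 54 calls made for the 10 genes in 17 tests, none reversed under any alternative. The calls kept were 54 with the series table, without the dimmest 25% of features and with the features of a locus averaged, 53 with the replicate number as a block, 48 with the values as deposited, 42 with only the arrays compared, 24 with slide as a random block and 20 with a log2 difference of at least 1, and of those that could be fitted 11 of 17 with slide as a fixed block, 19 of 41 with Student's t-test and 17 of 17 in the 5 groups. In what follows, a line with a time alone is its difference of responses from WT. With the values as deposited 1 gene passed in WT Cd 30 min against WT control, 0 in gox2 at 24 h and 1 in 35S::GOX2 at 30 min. With slide as a random block the counts were 0 in WT Cd 30 min against WT control, 0 in gox2 Cd 30 min against gox2 control, 0 and 1 in 35S::GOX2 Cd 30 min and 24 h against 35S::GOX2 control, 0 and 1 in gox2 and 35S::GOX2 against WT at 30 min of Cd, 1 in WT Cd 24 h against WT Cd 30 min, 0 in gox2 at 30 min and at 24 h and 1 in 35S::GOX2 at 30 min. They were 3 in WT Cd 24 h against WT control with either block for slide. With slide as a fixed block, its effect came only from gox2 Cd 24 h, the group on more than 1 slide. The counts were then 0 in 35S::GOX2 against WT at 30 min of Cd, 2 in gox2 at 24 h and 0 in 35S::GOX2 at 30 min. With only the arrays compared they were 5 and 8 in WT Cd 30 min and 24 h against WT control, 1 in gox2 Cd 30 min against gox2 control, 5 and 1 in gox2 and 35S::GOX2 against WT at 30 min of Cd, 8 in WT Cd 24 h against WT Cd 30 min and 0 in gox2 at 24 h. With a log2 difference of at least 1 they were 0 and 1 in WT Cd 30 min and 24 h against WT control, 0 in gox2 Cd 30 min against gox2 control, 0 at both times of Cd in 35S::GOX2 against its control, 5 and 4 in gox2 control and 35S::GOX2 control against WT control, 0 in gox2 and 2 in 35S::GOX2 against WT at 30 min of Cd, 0 in WT Cd 24 h against WT Cd 30 min, 2 in gox2 at 30 min and 1 in 35S::GOX2 at 30 min. With Student's t-test they were 0 and 8 in WT Cd 30 min and 24 h against WT control, 0 in gox2 Cd 30 min and in 35S::GOX2 Cd 30 min against their controls, 2 in gox2 control against WT control, 5 and 0 in gox2 and 35S::GOX2 against WT at 30 min of Cd and 6 in WT Cd 24 h against WT Cd 30 min. In the 5 groups, an alternative chosen after seeing the data, they were 6 and 8 in WT Cd 30 min and 24 h against WT control, 6 in gox2 against WT at 30 min of Cd and 7 in WT Cd 24 h against WT Cd 30 min. The cause of these changes was not tested. The replicate numbers did not pair the arrays, as no comparison had all 3 correlations of same-numbered arrays over 0.1 (-0.53 to 0.44), and in none did all 6 arrays correlate best with their own number (0 to 4 of 6). With the replicate number as a block HSP17.4 in gox2 at 30 min no longer passed (adjusted p = 0.056), and 1 gene, HSP23.6-MITO, passed in 35S::GOX2 against WT at 24 h of Cd.

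Leaving out each array in turn kept 288 of 402 calls, and 27 of the 54 were lost at least once. The counts ran from 0 to 2 and stayed at 2 in WT Cd 30 min and 24 h against WT control, from 2 to 3 in WT Cd 24 h against WT Cd 30 min, from 0 to 8 and 0 to 1 in gox2 Cd 30 min and 24 h against gox2 control, and from 0 to 1 and 1 to 4 in 35S::GOX2 Cd 30 min and 24 h against 35S::GOX2 control. They ran from 6 to 8 and 6 to 7 in gox2 control and 35S::GOX2 control against WT control, from 0 to 2 and 2 to 4 in gox2 and 35S::GOX2 against WT at 30 min of Cd, from 0 to 5 and 0 to 1 at 24 h, from 2 to 5 and 0 to 4 in gox2 at 30 min and 24 h, and from 1 to 3 and 5 to 6 in 35S::GOX2 at 30 min and 24 h. Signal over background cannot be given for these values.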
